A study of Mus musculus with 10 samples.

Results

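Potassium channel genes, those whose symbol starts with Kcn, were described in embryonic mouse lenses with and without Dicer, an enzyme needed to make most mature microRNAs from their hairpin precursors. They were chosen by name from the platform annotation: probe sets with exactly 1 symbol starting with Kcn, leaving out Kcnq1ot1, with 1 probe set per gene by the highest mean over the 10 arrays. This gave 92 genes from 95 probe sets, of 19938 genes measured in all. Symbol families divided them into 35 voltage-gated pore subunits, 15 inward rectifiers (Kcnj), 14 two-pore channels (Kcnk), 8 activated channels and 20 others. The activated channels were the Kcnma, Kcnn, Kcnt and Kcnu genes, grouped by name alone as calcium- or sodium-activated. The 20 others comprised auxiliary subunits, a regulator and 3 noncoding transcripts named for the opposite strand of a channel gene.

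DicerCN embryos carried the Le-Cre transgene (Le-Cre+/-) and were homozygous for a loxP-flanked Dicer allele (DicerloxP/loxP). Le-Cre expresses the recombinase under a Pax6 promoter, named P0, in head surface ectoderm, the source of the lens and of the corneal epithelium. Control embryos had the same flanked alleles and no Cre (Le-Cre-/-), so the presence of Cre and the loss of Dicer cannot be told apart. Each group had 5 arrays from E13.5 embryos, a stage in mid-gestation, and each array was hybridised with RNA from the combined lens pair of 1 embryo. Other cells of the eye that remained on a dissected lens kept their Dicer alleles where the transgene was not active.

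The deposited values are log2 signals, with array medians between 6.54 and 6.56. Dicer1 signals ran from 10.19 to 10.45 in DicerCN lenses and from 10.01 to 10.32 in control lenses (change 0.13, SE 0.08, limma adjusted p = 0.472), and its probe set may lie outside the deleted part, so it does not check the labels. All 11 measured lens markers, such as crystallins and lens connexins, lay above the array median on all 5 control arrays. Of 17 macrophage markers 3 were higher by limma's test (2.56% of all genes were) and 0 lower. The scores of that list (mean log2 difference from the control mean) ran from 0.20 to 0.99 in DicerCN and from −0.32 to 0.33 in control lenses, and overlapped. The highest neural retina score was that of DicerCN replicate 5 (2.03, against −0.25 to 0.67 in the other DicerCN and −0.33 to 0.45 in control lenses). Pigment scores were 0.96, 1.63 and 1.08 in DicerCN replicates 1, 4 and 5 and −0.13 and 0.08 in DicerCN replicates 2 and 3, against −0.20 to 0.21 in control lenses. Control replicate 4 had a striated muscle score of 2.59, against −0.84 to −0.47 in the other control arrays.

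Potassium channels let potassium ions leave or enter a cell along their gradient and so set its resting voltage. Voltage-gated channels open on depolarisation, inward rectifiers pass current more easily into than out of the cell, and two-pore channels, whose subunit has a pair of pore loops, carry background or leak current. Calcium-activated channels couple the voltage to calcium. In the lens, potassium channels and the sodium-potassium pump take part in the ion and water circulation that serves a tissue without blood vessels.

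In DicerCN lenses 7 potassium channel genes fell and 0 rose. They were Kcne1, Kcnh1, Kcnma1, Kcnip1, Kcnab1, Kcnj10 and Kcnh2, and their changes lay between −1.004 and −0.38 on the log2 scale. With the macrophage score as a covariate 2 of the 7, Kcnh1 and Kcnma1, kept the call, and Kcnh2 lost it under 17 of 20 alternatives. The changes of the 7 with that covariate lay between −1.08 and −0.28. Macrophage scores were mostly higher in DicerCN lenses, so this fit cannot fully part the score from the genotype. Of the voltage-gated genes 2 of 35 fell, of the inward rectifiers 1 of 15, of the two-pore genes 0 of 14, of the activated channels 1 of 8 and of the auxiliary group 3 of 20. A gene was called when limma's moderated test of 5 DicerCN against 5 control arrays gave a Benjamini-Hochberg adjusted p under 0.05 over all 19938 genes. On that rule 3.97% of all genes were lower and 2.56% were higher in DicerCN lenses, against 7.61% and 0% of the potassium channel genes. Either direction was called in 6.54% of all genes. The share of potassium channel genes that fell was above that background, rested on 7 genes, and was not tested as a group. Without the adjustment, 12 of the 92 were lower and 4 higher at p under 0.05. Of all 19938 genes, 2041 were lower and 1667 higher at that unadjusted threshold. A bulk array cannot tell fewer cells of a type from less RNA per cell.

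**Figure D1:**
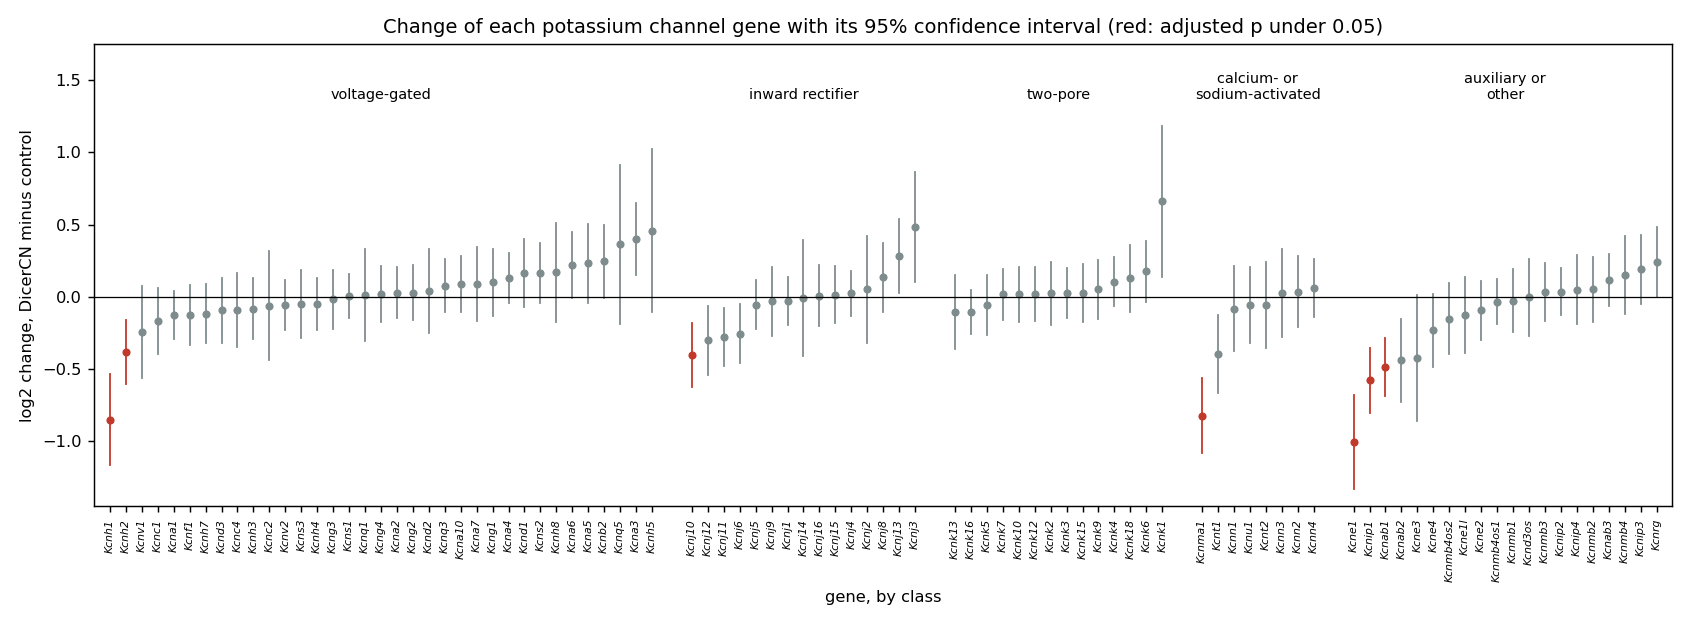
Log2 change (DicerCN minus control, y axis) of each of the 92 potassium channel genes (x axis, grouped by class and ordered by change), with its 95% confidence interval as a vertical line. Red marks the 7 genes with an adjusted p under 0.05, all of them below 0, and the 14 two-pore genes hold no red point.

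The median change of the 92 genes was 0.01, against −0.0014 over all genes, so the group as a whole lay at the centre of the arrays while a few members were lower. The class medians were 0.02 for voltage-gated, −0.01 for inward rectifier, 0.02 for two-pore, −0.06 for activated and −0.03 for auxiliary genes. Of the 85 genes that did not pass, 77 had a 95% confidence interval within a 1.5-fold change either way. These 77 of the 92 stand against 17349 of all 19938 genes, so most genes on the array were bounded in the same way. Changes larger than 1.5-fold are therefore outside the interval for most of the group, and smaller ones are not.

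Promoter sequences are shown for the 4 fallen genes with a single start in the RefSeq promoter table, Kcnma1, Kcnh1, Kcnh2 and Kcnj10, so that the sequence around a listed start of each can be compared. Each runs 5′ to 3′ from 250 bases before to 50 bases after the start, in build GRCm38.p6. The windows are chr14:24004156-24004455, minus strand for Kcnma1, chr1:192190527-192190826, plus strand for Kcnh1, chr5:24329542-24329841, minus strand for Kcnh2 and chr1:172340960-172341259, plus strand for Kcnj10. The listed start lies at the annotated 5′ end of the gene in Kcnj10. It lies 0.9 kb inside the gene in Kcnma1, 1.63 kb in Kcnh1 and 22.09 kb in Kcnh2. The Kcnh2 window thus shows a start well inside the gene, and other starts are not shown. Capitals mark matches, on either strand, to GGGCGG, the GC box bound by factors of the Sp family.
Kcnma1 listed start: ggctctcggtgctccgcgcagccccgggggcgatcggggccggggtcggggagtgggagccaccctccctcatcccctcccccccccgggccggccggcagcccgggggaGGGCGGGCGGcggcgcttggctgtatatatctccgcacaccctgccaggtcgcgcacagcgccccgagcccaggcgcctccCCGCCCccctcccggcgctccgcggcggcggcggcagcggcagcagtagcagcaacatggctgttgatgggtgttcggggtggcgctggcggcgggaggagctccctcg
Kcnh1 listed start: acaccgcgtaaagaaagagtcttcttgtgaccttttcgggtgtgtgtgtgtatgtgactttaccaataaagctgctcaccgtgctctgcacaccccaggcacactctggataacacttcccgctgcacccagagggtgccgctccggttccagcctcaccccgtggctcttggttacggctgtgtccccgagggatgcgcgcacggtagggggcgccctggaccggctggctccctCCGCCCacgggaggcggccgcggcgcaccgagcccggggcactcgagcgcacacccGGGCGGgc
Kcnh2 listed start: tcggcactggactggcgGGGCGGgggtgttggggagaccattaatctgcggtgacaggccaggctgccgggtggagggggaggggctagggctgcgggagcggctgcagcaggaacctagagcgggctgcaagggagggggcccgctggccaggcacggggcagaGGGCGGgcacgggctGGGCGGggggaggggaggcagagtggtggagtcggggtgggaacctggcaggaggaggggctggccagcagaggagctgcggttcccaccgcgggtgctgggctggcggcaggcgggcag
Kcnj10 listed start: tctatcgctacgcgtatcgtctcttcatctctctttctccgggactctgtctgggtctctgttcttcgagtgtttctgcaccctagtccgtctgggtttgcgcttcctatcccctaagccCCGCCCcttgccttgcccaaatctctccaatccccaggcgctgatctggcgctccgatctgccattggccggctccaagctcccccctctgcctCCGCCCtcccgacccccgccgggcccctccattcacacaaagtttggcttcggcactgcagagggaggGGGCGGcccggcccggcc

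All 4 windows were rich in G and C (78.0% for Kcnma1, 66.0% for Kcnh1, 74.3% for Kcnh2 and 63.7% for Kcnj10). The median was 52.7% over 32851 promoters, 58% over those of potassium channel genes and 59% over the 10 of fallen genes. Promoters of fallen genes not shown had 46.7%, 50.3% and 36.7% (Kcnab1) and 54.3%, 66.7% and 45.3% (Kcnip1). The 4 windows held 3, 2, 3 and 3 GC boxes, and in Kcnma1 a pair of the matches overlap. A GC box was present in 45 of 95 promoters of potassium channel genes (47.4%), in 6 of the 10 listed for 6 of the fallen genes, and in 35.7% of all promoters of this length. Searches on both strands for TGCTGA (the half-site of the Maf recognition element), TATAAA (the TATA box) and CACGTG (an E-box) found none in these 4 windows. Among the 10 promoters of the fallen genes they occurred in 1, 1 and 2, and over all promoters in 19.5%, 13.6% and 7.15%. A match is a description of letters and not a bound site. No microRNA hairpin of the 1005 in the RefSeq table overlapped any of the 92 genes, so none of them is a host of a listed microRNA.

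Of the voltage-gated genes, both that fell belong to the ether-a-go-go family. Kcnh1, the founding member of that family in mammals, had log2 signals of 7.31, 6.91, 7.09, 6.57 and 6.60 in DicerCN replicates 1 to 5, against 7.70, 7.74, 8.07, 7.62 and 7.60 in control replicates 1 to 5. All DicerCN arrays lay below all control arrays, and DicerCN replicates 4 and 5 were the lowest. The gene was 1.80-fold lower (change −0.85, SE 0.14, limma adjusted p = 0.00405, exact 2-sided permutation p = 0.00794, the smallest that 5 against 5 arrays can give). It passed under all 20 alternatives run, with changes of −1.08 to −0.71.

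Kcnh2, the channel of the rapid repolarising current of the heart, had log2 signals of 7.57, 7.84, 7.75, 7.89 and 7.78 in DicerCN and 8.30, 7.81, 8.13, 8.23 and 8.26 in control lenses. The groups overlapped, since control replicate 2 lay among the DicerCN arrays. Its fall of 0.38 (SE 0.10, limma adjusted p = 0.0428, permutation p = 0.0238) was close to the threshold. The call was lost under 17 of 20 alternatives, at adjusted p of 0.0525 to 0.454, while the change stayed between −0.47 and −0.28. Leaving out any 1 array other than control replicate 2 ended it (adjusted p up to 0.119). The other members of the family, Kcnh3, Kcnh4, Kcnh5, Kcnh7 and Kcnh8, did not pass.

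**Figure D2:**
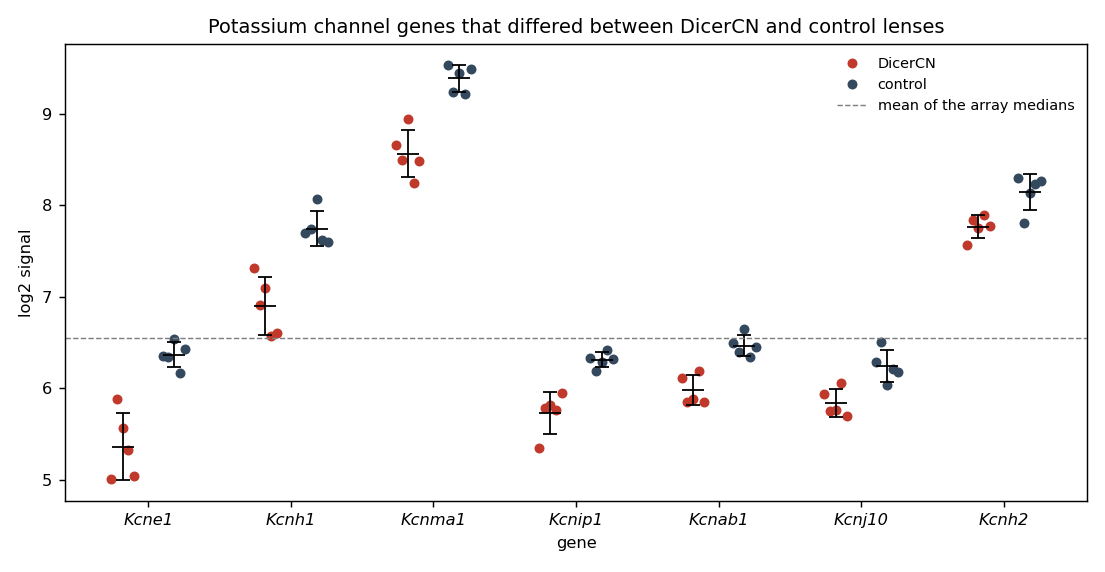
Log2 signal (y axis) of the 7 genes that differed (x axis, ordered by change), with 1 point per array, DicerCN left of control, and the mean and SD as black bars; the dashed line is the mean of the array medians. The groups do not overlap in Kcne1, Kcnh1, Kcnma1, Kcnip1 and Kcnab1, and they overlap in Kcnj10 and Kcnh2.

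The Kcna family of delayed rectifier and inactivating channels had 0 of 8 members past the test, and 7 of the 8 changes were positive, against 49.7% of those of all genes. Kcna3, a channel of lymphocytes and macrophages, had log2 signals of 7.50, 7.63, 8.09, 7.66 and 7.54 in DicerCN and 7.35, 7.07, 7.28, 7.44 and 7.28 in control lenses. All DicerCN arrays lay above all control arrays, with DicerCN replicate 3 the highest, and it was the 1 potassium channel gene of 92 with that order (2.96% of all genes). Its change of 0.40 (SE 0.11, 95% confidence interval 0.15 to 0.65) missed the threshold (limma adjusted p = 0.0583, permutation p = 0.00794). DicerCN replicate 3 had the highest macrophage score (0.99), while replicate 1, with the next highest (0.83), had the lowest Kcna3 signal of the DicerCN arrays. The change was 0.23 (adjusted p = 0.584) when adjusted for the macrophage score, 0.47 (adjusted p = 0.0580) with the retina score and 0.44 (adjusted p = 0.0506) with the muscle score.

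Among other voltage-gated genes, Kcnd3, a pore subunit of the transient outward current, stood at 8.54 ± 0.18 in DicerCN and 8.64 ± 0.16 in control lenses (SD, n = 5 each), a change of −0.09 with an interval of −0.32 to 0.13. Kcng2, a silent subunit that modifies other channels, stood at 7.25 ± 0.12 in DicerCN and 7.22 ± 0.14 in control lenses (change 0.03, interval −0.16 to 0.22). Kcnh5 and Kcnq5 are named because of their wide spread among DicerCN arrays, seen in the data. Kcnh5 had signals of 5.53, 5.65, 5.995, 6.98 and 6.55 in DicerCN lenses, against 5.32 to 6.21 in control lenses, and did not pass (change 0.46, SE 0.26, limma adjusted p = 0.392). Kcnq5, a subunit of the M-current, had 6.39, 5.64, 6.73, 7.23 and 6.86 in DicerCN and 5.74 to 6.58 in control lenses (change 0.36, SE 0.25, adjusted p = 0.509). DicerCN replicates 4 and 5 stood above all control arrays in both genes, and replicate 3 did so in Kcnq5. With the retina, macrophage and muscle scores as covariates in turn, the change of Kcnh5 was 0.18, 0.41 and 0.42. That of Kcnq5 was 0.29, 0.01 and 0.42.

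Of the inward rectifiers, Kcnj10, the channel by which glia take up potassium, was the 1 that fell. Its log2 signals were 5.94, 5.75, 5.76, 6.06 and 5.70 in DicerCN and 6.29, 6.51, 6.03, 6.21 and 6.17 in control lenses. These values all lay below the array median. The groups overlapped by 1 array a side, DicerCN replicate 4 and control replicate 3. The fall was 0.40 (SE 0.10, limma adjusted p = 0.0329, permutation p = 0.0159). The call was lost under 12 of 19 alternatives, at adjusted p of 0.0502 to 0.171, with changes of −0.47 to −0.34. Leaving out DicerCN replicate 2, 3 or 5, or control replicate 1, 2, 4 or 5, ended it.

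Kcnj11 and Kcnj12 lay lower without passing. Kcnj11, the pore of the ATP-sensitive channel, had 7.62, 7.42, 7.48, 7.46 and 7.45 in DicerCN and 7.88, 7.52, 7.75, 7.66 and 7.99 in control lenses (change −0.28, SE 0.09, limma adjusted p = 0.104). The groups overlapped only at DicerCN replicate 1 and control replicate 2. Its regulatory subunit Abcc8, the sulfonylurea receptor, stood at 0.01 (SE 0.13). Kcnj12, a strong inward rectifier of heart and muscle, had 8.37, 8.64, 8.33, 8.17 and 8.17 in DicerCN and 8.65, 8.57, 8.63, 8.44 and 8.91 in control lenses (change −0.30, SE 0.11, adjusted p = 0.140). Kcnj8, the other pore of ATP-sensitive channels, stood at 0.14 and its partner Abcc9 at 0.09.

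Kcnj3 and Kcnj13 are named after their values were seen. Kcnj3, a channel opened by G proteins, had 5.94, 6.25, 6.04, 6.74 and 6.69 in DicerCN and 5.33, 5.91, 5.96, 6.03 and 5.99 in control lenses (change 0.49, SE 0.18, limma adjusted p = 0.141). Kcnj13, a channel of the pigment epithelium of the eye, had 6.002, 6.31, 6.50, 6.61 and 6.50 in DicerCN and 5.93, 5.96, 6.31, 6.21 and 6.10 in control lenses (change 0.28, SE 0.12, adjusted p = 0.212). DicerCN replicates 4 and 5 were the highest in Kcnj3, and replicates 4, 3 and 5 in Kcnj13. DicerCN replicate 1 was the lowest DicerCN array in both genes. Pigment scores were 0.96, −0.13, 0.08, 1.63 and 1.08 in DicerCN replicates 1 to 5. The pigment score was not used as a covariate, and a link to it was not tested. Without DicerCN replicate 1 Kcnj13 passed (change 0.38, adjusted p = 0.0434). With the replicate number of the labels as a block, Kcnj3 passed (adjusted p = 0.0370).

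Of the 14 two-pore genes, 0 passed in either direction, and 1 had an unadjusted p under 0.05. Apart from Kcnk1, all 13 had a 95% confidence interval within a 1.5-fold change, as had 17349 of all 19938 genes. Kcnk1, a weak background channel of many epithelia and of brain, had log2 signals of 7.34, 7.37, 7.49, 8.16 and 8.60 in DicerCN and 6.91, 7.39, 7.61, 6.96 and 6.79 in control lenses. DicerCN replicates 4 and 5 stood above all other arrays, and the other 3 lay within the control range. The change of 0.66 (SE 0.24, interval 0.14 to 1.19) was the largest positive one among the 92 genes, and it did not pass (limma adjusted p = 0.145, permutation p = 0.0714). The same DicerCN arrays had retina scores of 0.67 and 2.03 and pigment scores of 1.63 and 1.08. DicerCN replicate 2 had a retina score of 0.54. Whether other tissue contributed to the Kcnk1 signal was not tested. The change was 0.28 (adjusted p = 0.449) with the retina score as a covariate, 0.82 (adjusted p = 0.344) with the macrophage score and 0.61 (adjusted p = 0.227) with the muscle score. Without control replicate 4 and DicerCN replicate 5 it was 0.42.

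The acid-sensitive channel Kcnk3 stood at 6.74 ± 0.12 in DicerCN and 6.72 ± 0.08 in control lenses (SD, n = 5 each), with an interval of the change of −0.14 to 0.20. Its relative Kcnk15 stood at 6.88 ± 0.08 in DicerCN and 6.86 ± 0.19 in control lenses, with an interval of −0.18 to 0.23. Kcnk4, a mechanically gated channel, was 0.11 higher (interval −0.06 to 0.27), and Kcnk5, a channel of fluid-secreting and absorbing epithelia, 0.06 lower (interval −0.26 to 0.15). Kcnk6 and Kcnk16, the others with the smallest p in the class, changed by 0.18 and −0.10 (adjusted p = 0.376 and 0.501).

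**Figure D3:**
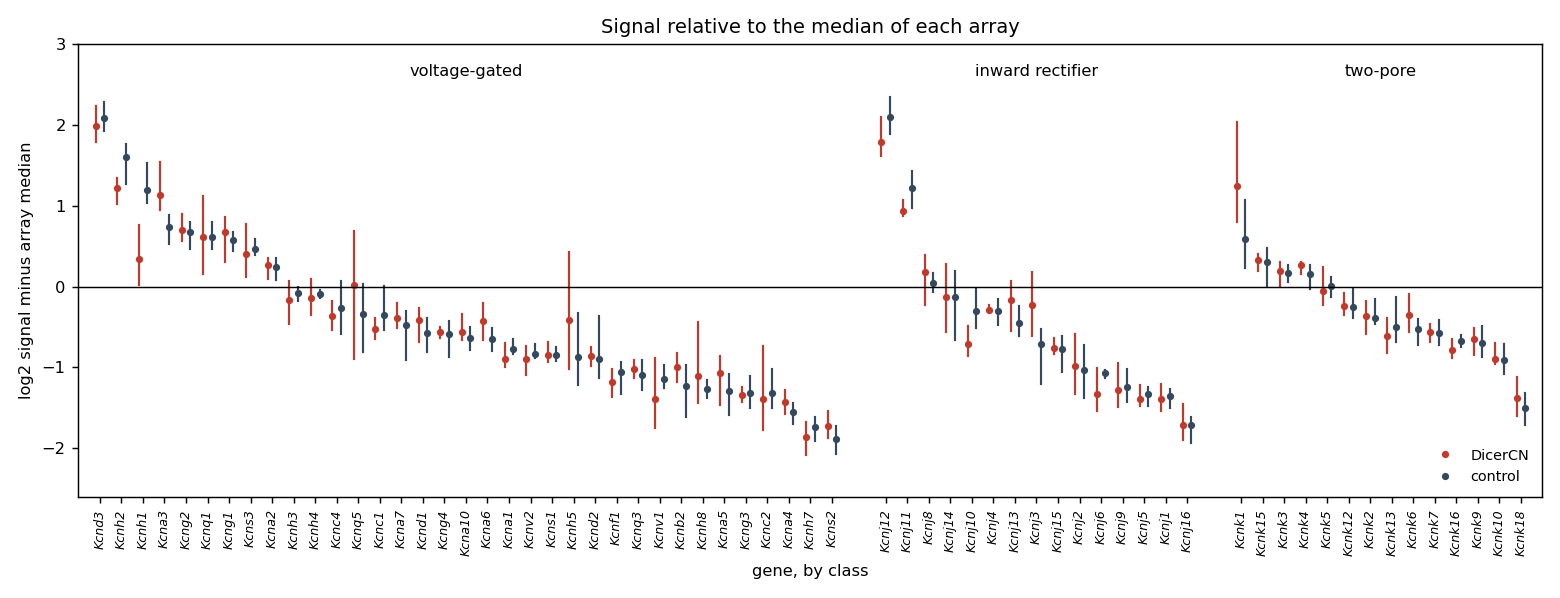
Log2 signal minus the median of the same array (y axis) for the voltage-gated, inward rectifier and two-pore genes (x axis, ordered within each class by the control mean), DicerCN in red left of control in dark blue, with the mean as a point and the range of 5 arrays as a line. In control lenses 9, 2 and 3 genes of these classes lie above 0 on every array, and Kcnh1 and Kcnh2 are the voltage-gated genes whose DicerCN values sit lowest against their controls.

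Above the array median on all 5 control arrays were 17 of the 92 genes (18.5%), against 51.1% of all genes. They comprised 9 of 35 voltage-gated genes (25.7%), 2 of 15 inward rectifiers (13.3%) and 3 of 14 two-pore genes (21.4%), with 1 of 8 activated channels and 2 of 20 others. The voltage-gated ones were Kcna2, Kcna3, Kcnd3, Kcng1, Kcng2, Kcnh1, Kcnh2, Kcnq1 and Kcns3. The inward rectifiers were Kcnj11 and Kcnj12, and the two-pore genes Kcnk1, Kcnk3 and Kcnk15. The remaining 3 were Kcnma1, Kcnab2, a cytoplasmic beta subunit, and Kcnd3os, a noncoding transcript from the opposite strand of Kcnd3. At the border, Kcnk4 and Kcnmb3 were above the median on 4 of 5 control arrays and on all 5 DicerCN arrays, and 58 genes were below it on all 10 arrays. All 17 stayed above it on every DicerCN array. A probe set's signal depends on its probes as well as on its transcript, so these counts do not rank the genes by abundance, and a signal below the median is not a sign of absence.

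Of these 17 genes 3 fell (17.6%), namely Kcnma1, Kcnh1 and Kcnh2, against 7.22% of all genes above the median on 5 control arrays. The other 75 held 4 that fell (5.33%), namely Kcne1, Kcnip1, Kcnab1 and Kcnj10, against 0.584% of all genes of that kind. Calls among dimmer probe sets were thus rare over the array, and 4 of the 57 such falls were potassium channel genes.

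Among the calcium- and sodium-activated channels, Kcnma1 fell. It encodes the pore of the large-conductance channel that opens with both calcium and voltage. Its log2 signals were 8.66, 8.49, 8.94, 8.24 and 8.49 in DicerCN and 9.54, 9.24, 9.45, 9.22 and 9.49 in control lenses. All DicerCN arrays lay below all control arrays, and the gene was 1.77-fold lower (change −0.82, SE 0.12, limma adjusted p = 0.00171, permutation p = 0.00794). The call held under all 20 alternatives, though the change was −0.43 (adjusted p = 0.00749) when the probe sets of the gene were averaged. A second, dim probe set of Kcnma1 stood at 3.88 in DicerCN and 3.93 in control lenses (change −0.05, interval −0.20 to 0.11) and did not show the fall. The beta subunits that tune this channel, Kcnmb1 to Kcnmb4, changed by −0.03 to 0.15 and did not pass.

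Kcnt1, a sodium-activated channel, had 5.87, 6.05, 5.67, 5.86 and 5.50 in DicerCN and 6.37, 6.05, 5.99, 6.03 and 6.49 in control lenses (change −0.40, SE 0.13, limma adjusted p = 0.0878). DicerCN replicate 2 lay above control replicates 2, 3 and 4, and the other DicerCN arrays lay below all controls. The small-conductance channels Kcnn1, Kcnn3 and Kcnn4 changed by −0.08, 0.03 and 0.06.

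The auxiliary subunits held 3 of the 7 falls, and the 3 genes bind different pores. Kcne1, a single-span subunit that slows the Kcnq1 channel in heart and inner ear, had log2 signals of 5.01, 5.88, 5.56, 5.32 and 5.04 in DicerCN and 6.36, 6.35, 6.54, 6.16 and 6.43 in control lenses. The groups were separate, and the DicerCN arrays were spread over an SD of 0.37, against 0.14 in controls. At 2.01-fold lower it was the largest change of the 92 (change −1.004, SE 0.15, limma adjusted p = 0.00194, permutation p = 0.00794). Adjusting for the macrophage score ended the call (−0.89, adjusted p = 0.0819). Its pore partner Kcnq1 did not pass (change 0.01, interval −0.31 to 0.33). All 5 members of the Kcne family had negative changes, against 10036 of all 19938 genes, and Kcne1 was the 1 that passed. The intervals of Kcne2, Kcne3, Kcne4 and Kcne1l each included 0.

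Kcnip1, a calcium-binding partner of the Kcnd channels, had 5.35, 5.78, 5.82, 5.76 and 5.95 in DicerCN and 6.33, 6.19, 6.29, 6.42 and 6.32 in control lenses. These values all lay below the array median. The groups were separate (change −0.58, SE 0.10, limma adjusted p = 0.00571, permutation p = 0.00794), and adjusting for the macrophage score ended the call (−0.47, adjusted p = 0.174). Kcnd1, Kcnd2 and Kcnd3, its pore partners, changed by 0.16, 0.04 and −0.09 and did not pass. Kcnip2, Kcnip3 and Kcnip4 did not pass either.

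Kcnab1, a beta subunit that speeds the inactivation of Kcna channels, had 6.11, 5.85, 5.89, 6.19 and 5.85 in DicerCN and 6.50, 6.39, 6.65, 6.34 and 6.45 in control lenses. The groups were separate (change −0.49, SE 0.09, limma adjusted p = 0.00779, permutation p = 0.00794), and the same adjustment ended the call (−0.54, adjusted p = 0.0859). Its relative Kcnab2 had 7.24, 7.60, 7.61, 7.47 and 7.69 in DicerCN and 7.94, 7.70, 8.18, 7.68 and 8.31 in control lenses, with overlap at DicerCN replicate 5 and control replicate 4. Its change of −0.44 (SE 0.13, adjusted p = 0.0707) missed the threshold, and without control replicate 4, the array with the high muscle score, it passed (change −0.51, adjusted p = 0.0411). Kcnab3 stood at 0.12.

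All DicerCN arrays lay below all control arrays in 5 of the 92 genes (Kcne1, Kcnh1, Kcnma1, Kcnip1 and Kcnab1), against 4.42% of all genes. In 6 of the 92 the groups were apart in either direction, against 7.38% of all genes. With control replicate 4 and DicerCN replicate 5 both left out, these 5 passed and Kcnj10 and Kcnh2 did not. With the macrophage score as a covariate Kcnma1 (change −0.89, limma adjusted p = 0.0381) and Kcnh1 (−1.08, adjusted p = 0.0250) passed. Kcne1, Kcnip1 and Kcnab1 then did not, nor did Kcnj10 (−0.47, adjusted p = 0.171) or Kcnh2 (−0.28, adjusted p = 0.454).

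**Figure D4:**
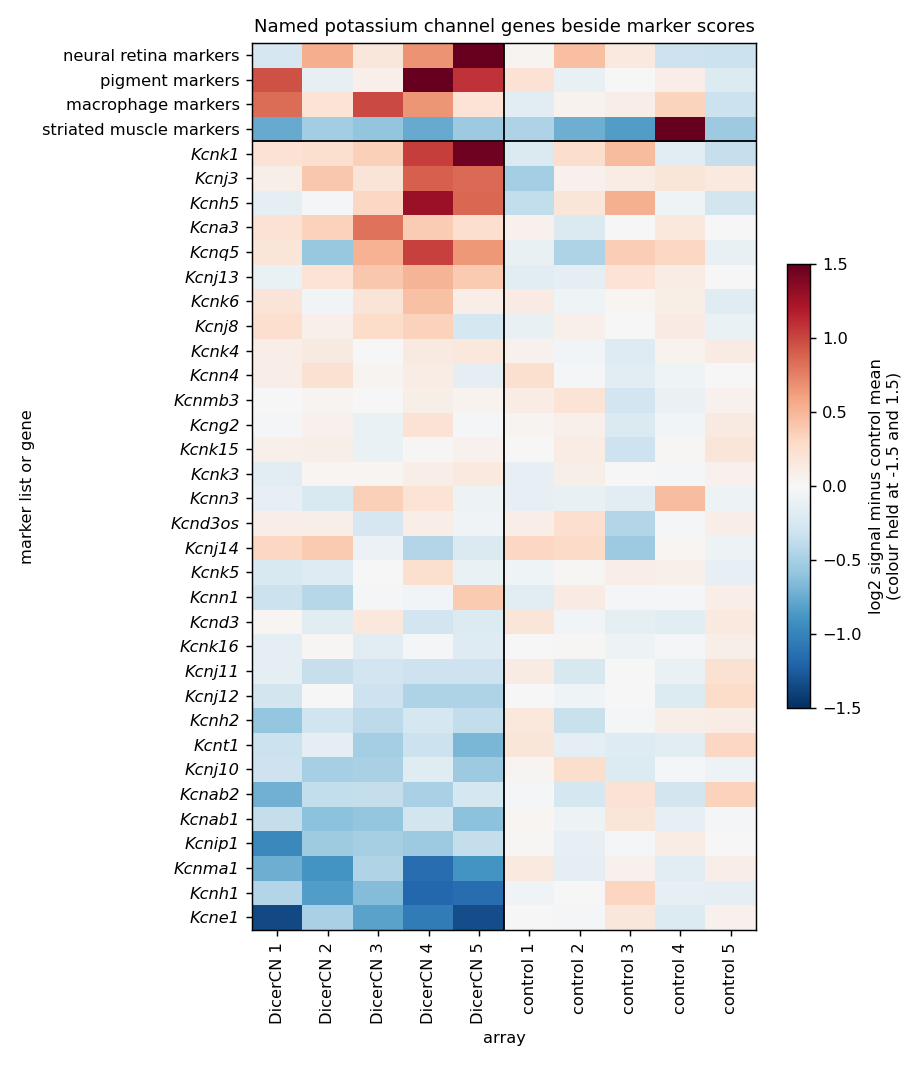
Log2 signal minus the control mean (colour, red above and blue below, held at the ends of the scale) on each array (x axis, DicerCN left of control), for 4 marker lists (upper rows) and 32 potassium channel genes (lower rows, ordered by change). The lowest rows are blue on all 5 DicerCN arrays, while the uppermost gene rows, Kcnk1, Kcnj3 and Kcnh5, are darkest in DicerCN replicates 4 and 5.

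The genes that move potassium by other routes were read from 5 lists drawn up from general knowledge. Of 16 measured cation-chloride cotransporters and their kinases, 2 rose and 0 fell, against 2.56% higher and 3.97% lower over all genes. Slc12a7, a potassium-chloride cotransporter that carries both ions out of the cell, had 7.92, 8.01, 8.16, 8.27 and 8.47 in DicerCN and 7.43, 7.43, 7.75, 7.42 and 7.35 in control lenses. The groups were separate (change 0.69, SE 0.11, limma adjusted p = 0.00305). Slc12a4, of the same branch of the family, had 8.43, 8.27, 8.52, 8.16 and 8.05 in DicerCN and 7.72, 7.57, 7.67, 8.07 and 7.65 in control lenses, overlapping at DicerCN replicate 5 and control replicate 4 (change 0.55, SE 0.11, adjusted p = 0.0126). With the macrophage score as a covariate both calls were lost, at changes of 0.74 (adjusted p = 0.0616) and 0.30 (adjusted p = 0.372).

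Of 14 genes of the sodium-potassium pump and its relatives 0 passed, and of 17 partners of potassium channels 0 passed. Atp1b2, a pump beta subunit, stood at 0.59 (SE 0.21, limma adjusted p = 0.129) and Atp1b1 at 0.17 (adjusted p = 0.378). Among the partners Lgi1, a secreted ligand that acts on Kcna channels in neurons, stood at 0.67 (SE 0.30, adjusted p = 0.241) and Lrrc38, an auxiliary subunit of the Kcnma1 channel, at 0.23 (adjusted p = 0.260). Of 9 pacemaker and cyclic nucleotide-gated channels 0 passed, with Hcn4 at 0.34 and Cngb3 at −0.09. Of 7 lens connexins and water channels 0 passed, with Aqp1 at 0.27 and Aqp7 at −0.20. The median changes of the 5 lists, in the order cotransport, pump, partners, pacemaker and connexin, were 0.03, −0.02, −0.01, 0.01 and −0.10.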

How the data were processed

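RNA from E13.5 lens pairs (100 ng) was labelled with the Affymetrix whole-transcript sense target assay, per the labels' protocols, and the submitters' processing notes name GCOS. The values deposited by the authors are taken to be log2 signals, from their range of 1.91 to 15.24. Their summarisation method was not given in the sources used, and near-equal array medians show prior scaling. The table holds 35557 probe sets, of which 21789 had 1 symbol. Precision is limited by the 5 arrays a group: the median SE of a change was 0.0986.

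Changes were fitted with limma 3.58.1 (R 4.3.3, lmFit and eBayes, 2-sided) and adjusted by Benjamini-Hochberg over 19938 genes. Single values were compared over the 252 partitions of 10 arrays. The fitting code was tested on artificial arrays with known changes. The members and lists were chosen with earlier results of these data known. Named are genes that passed, those with groups apart, and in each class the 5 with the highest control mean and the 3 with the smallest p (28 genes), with passing list members or else the 2 of smallest p (10 genes), and 4 genes chosen after their values were seen. Alternatives were quantile normalization, a filter on dim genes, probe-set means, all probe sets, array weights, a replicate block and omitted arrays. The neural retina, macrophage and striated muscle scores, and no other marker scores, were also used in turn as covariates. The marker lists were neural retina, macrophage, striated muscle, pigment, vessel, erythroid, mesenchyme and lens. Their numbers of genes higher and lower were 0 and 0 of 19, 3 and 0 of 17, 0 and 0 of 15, 0 and 0 of 7, 0 and 0 of 8, 0 and 0 of 4, 0 and 1 of 7, and 0 and 0 of 11.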

Additional observations from a re-analysis of the deposited data

Results flagged for a closer look

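In 5 of 84 groups of 5 arrays examined, 1 array stood apart from the other 4 by more than a gap test (Dixon's, at its 95% level) allows, and chance gives about 1 in 20. Kcna3 in DicerCN replicate 3 was at 8.094, with the next DicerCN array at 7.657. Kcnn3 in control replicate 4, the array with the high muscle score, was at 6.756, with the next control at 6.219. Kcnj3 in control replicate 1 was at 5.334, below the next control at 5.913. Atp1b1 in DicerCN replicate 3 was at 7.488, below the next DicerCN array at 7.684. Slc12a7 in control replicate 3 was at 7.746, above the next control at 7.432.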

How the results depend on the processing

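The count of potassium channel genes lower in DicerCN lenses was 7, and 5 to 7 when any 1 array was left out. It was 4 with dim genes left out, where fewer genes are tested, and 2 after adjustment for the macrophage score. The 4 were Kcnh1, Kcnh2, Kcnma1 and Kcnab2, the last not among the 7. Kcne1, Kcnip1, Kcnab1 and Kcnj10 were left out as dim and not tested in that setting. The count of higher genes was 0, 1 with dim genes left out, with array weights or with the replicate block, and 0 to 2 without 1 array. Kcna3 was the gene gained among voltage-gated genes (1 with dim genes left out and 1 with array weights, 0 to 1 without 1 array), and Kcnj3 among inward rectifiers (1 with the replicate block, 0 to 1 without 1 array, where it was Kcnj13).

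Lower voltage-gated genes numbered 2, and 1 with quantile normalization, all probe sets, array weights, the replicate block, any of the 3 marker scores, control replicate 4 and DicerCN replicate 5 both left out, and 1 to 2 without 1 array. Lower inward rectifiers numbered 1, and 0 with dim genes left out (Kcnj10 is not tested there), all probe sets, the replicate block, the retina or macrophage score, those 2 arrays left out, and 0 to 1 without 1 array. Lower auxiliary genes numbered 3, then 0 with the macrophage score and 3 to 4 without 1 array. With dim genes left out the count was 1, which was Kcnab2, and Kcne1, Kcnip1 and Kcnab1 are not tested there. Kcnab2 made the count 4 with the muscle score, with the replicate block and with those 2 arrays left out. The two-pore counts were 0 in all settings, and 17 genes lay above the array median in controls, or 17 after quantile normalization, 13 against the median of genes with a symbol and 21 by group means. Among cotransporters the 2 higher genes became 0 with the macrophage score, and 1 lower gene appeared with dim genes left out and 1 with array weights. Among channel partners 1 lower gene appeared with the macrophage score.

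Signs turned in 10 genes that did not pass in any of these settings. With macrophage adjustment Kcnj8 was at −0.138, Kcnj14 at 0.0724, Kcnn3 at −0.288, Kcnd3os at 0.121 and Lgi1 at −0.230. With the retina score Kcnj14 was at 0.0898 and Kcnk3 at −0.0408, and with the muscle score Kcnj14 was at 0.0127. Without control replicate 4 and DicerCN replicate 5 Kcnj14 was at 0.0534, Kcnk3 at −0.0107 and Kcnd3os at 0.00454. After quantile normalization Kcnk15 was at −0.00176, Kcnn3 at −0.00125 and Kcnd3os at 0.0055, and with array weights Kcnmb3 was at −0.00203. Without 1 array the changes ran from −0.114 to 0.0606 for Kcnd3os, −0.0250 to 0.0624 for Kcng2, −0.144 to 0.101 for Kcnj14, −0.0495 to 0.0728 for Kcnk15, −0.00322 to 0.0746 for Kcnk3, −0.0400 to 0.0845 for Kcnmb3, −0.203 to 0.00300 for Kcnn1 and −0.0552 to 0.143 for Kcnn3. The causes were not tested. The replicate block lost the calls of Kcnh2 (adjusted p = 0.0850) and Kcnj10 (0.0513) and gained Kcnab2 (0.0491) and Kcnj3 (0.0370), leaving 6 lower and 1 higher genes. The numbers did not pair the arrays: same-numbered arrays deviated together at r of −0.088 to 0.19, and 1 of 5 correlated best with its own number.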
